A study of Mus musculus with 17 samples.

Results

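The Reg family genes Reg1, Reg2, Reg3a, Reg3b, Reg3d and Reg3g, 6 of the 55450 genes in the count table, were followed across 17 AB12 tumors. They were found by matching the table's Ensembl identifiers to these symbols in Gencode vM21, and all 6 were matched. The genes were chosen by their counts in the anti CTLA-4 treated d14 tumors, which were high in replicates 1 and 3, so their values in that group are a description and carry no test. AB12 is a murine mesothelioma line, and the tumors grew in the peritoneum of 8-week-old female BALB/c mice. There were 3 untreated tumors at d6, 5 at d10 and 3 at d14 after injection of the cells. Of mice given anti CTLA-4 (clone 9D9, 200 µg into the peritoneum), 3 tumors were taken at d10 and 3 at d14. The study's text gives at least 3 independent mice for each group. Whether the 5 untreated d10 tumors came from 5 mice is not stated, and tumors are treated here as independent. The study's text gives injections on d6 and d10 for the treated d14 tumors, while no injection days are given for the treated d10 tumors. All groups carried the same transplanted line in the same strain, and no group was given a control antibody according to the labels. No library was labelled as pancreas, and injury of the pancreas was not measured, so the genes are described here by their family name.

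Reg proteins are small secreted proteins with a single C-type lectin fold. Reg1 and Reg2 are made by the acinar cells of the pancreas, the cells that secrete digestive enzymes, and Reg3b, also known as pancreatitis-associated protein, rises sharply in acinar cells during pancreatitis. In the intestine Reg3b and Reg3g are known as bactericidal lectins, and cytokines that signal through STAT3, such as IL-6 and IL-22, are known inducers of several Reg genes.

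The 6 genes lie side by side on chromosome 6 (GRCm38, Gencode vM21), at chr6:78370657-78468872, an interval of 98.2 kb that holds 6 annotated genes, all of them Reg genes. Reg3b (chr6:78370657-78373466), Reg3a (chr6:78380709-78383827), Reg2 (chr6:78395623-78408106) and Reg1 (chr6:78422711-78428667) are on the plus strand, and Reg3d (chr6:78375874-78378865) and Reg3g (chr6:78466269-78468872) on the minus strand. None of the 6 overlaps another gene. Their transcripts are related: Reg1 and Reg2 were 78.9% identical over aligned bases, the Reg3 genes 65.1 to 74.4% among each other, and the pairs between these branches 59.5 to 66.0%. No stretch of 75 bases, the shorter read length used, was shared between any pair of Reg transcripts, so reads kept as uniquely mapped can be assigned to single members.

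The bases just upstream of the RefSeq starts (GRCm38.p6, 250 bases per gene, 5′ to 3′ on the strand of the gene) are shown because the members moved together across the tumors. Capitals mark 3 motifs that were searched on both strands: the TATA box TATAAA, the STAT motif TTCNNNGAA, and an E-box, CANNTG, followed after 6 bases by TTCCC as in sites of the acinar factor PTF1, whose spacing was set after the Reg1 and Reg2 sequences had been read. The windows are chr6:78425733-78425982 for Reg1, chr6:78404905-78405154 for Reg2, chr6:78380459-78380708 for Reg3a, chr6:78370635-78370884 for Reg3b, chr6:78378866-78379115 for Reg3d and chr6:78468875-78469124 for Reg3g, and those of Reg1, Reg2 and part of Reg3b lie inside the longer Gencode gene intervals.
Reg1: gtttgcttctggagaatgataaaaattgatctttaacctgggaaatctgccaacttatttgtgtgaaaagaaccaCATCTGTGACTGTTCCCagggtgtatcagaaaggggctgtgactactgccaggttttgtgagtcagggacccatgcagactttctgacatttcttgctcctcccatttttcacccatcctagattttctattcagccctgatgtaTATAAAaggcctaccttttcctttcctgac
Reg2: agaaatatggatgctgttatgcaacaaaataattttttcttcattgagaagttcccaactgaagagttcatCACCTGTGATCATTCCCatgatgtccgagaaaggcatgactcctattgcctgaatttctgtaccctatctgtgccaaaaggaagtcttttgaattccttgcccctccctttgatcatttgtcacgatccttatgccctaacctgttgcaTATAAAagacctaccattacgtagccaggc
Reg3a: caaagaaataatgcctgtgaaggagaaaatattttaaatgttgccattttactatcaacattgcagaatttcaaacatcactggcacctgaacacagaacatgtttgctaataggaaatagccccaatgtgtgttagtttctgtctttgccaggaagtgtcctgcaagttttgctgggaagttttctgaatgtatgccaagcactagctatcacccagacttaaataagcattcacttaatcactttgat
Reg3b: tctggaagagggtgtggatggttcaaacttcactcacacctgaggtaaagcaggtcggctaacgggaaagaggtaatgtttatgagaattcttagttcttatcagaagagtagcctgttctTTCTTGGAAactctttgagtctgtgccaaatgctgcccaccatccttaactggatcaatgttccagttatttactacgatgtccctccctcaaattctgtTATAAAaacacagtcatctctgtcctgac
Reg3d: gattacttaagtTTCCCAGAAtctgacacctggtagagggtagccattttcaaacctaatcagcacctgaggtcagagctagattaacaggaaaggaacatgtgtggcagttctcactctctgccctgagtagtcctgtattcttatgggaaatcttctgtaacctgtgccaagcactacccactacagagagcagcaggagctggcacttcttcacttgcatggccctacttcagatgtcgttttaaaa
Reg3g: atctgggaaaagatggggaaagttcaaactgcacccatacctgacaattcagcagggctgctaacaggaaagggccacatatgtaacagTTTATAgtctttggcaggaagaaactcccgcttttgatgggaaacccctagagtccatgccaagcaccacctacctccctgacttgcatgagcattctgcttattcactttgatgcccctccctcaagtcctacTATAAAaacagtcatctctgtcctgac

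TATAAA was found in the windows of 4 of 6 Reg genes and in 9 of 27 windows of acinar enzyme genes. In Reg1, Reg2, Reg3b and Reg3g it lay on the strand of the gene, beginning 27 to 30 bases before the start. Over all genes it was found in 12.4% of 32851 windows of the same length. The STAT motif was found in Reg3b and Reg3d, that is in 2 of 6 windows, in 2 of 27 windows of acinar enzyme genes and in 7.02% of all windows. The spaced E-box and TTCCC were found in Reg1, beginning 175 bases before the start, and in Reg2, beginning 179 bases before it. They were found in 0.295% of all windows and in 0 of 27 windows of acinar enzyme genes. The spacing was taken from Reg1 and Reg2, so their matches were fixed in advance and these shares cannot set Reg apart from acinar genes. In the Ctrb1 window an E-box, CAGCTG, ended 200 bases before the start and TTCCC began at 194, closer than the spacing searched. Aligned in pairs, the windows were between 58.7% (Reg2 and Reg3b) and 71.5% (Reg3a and Reg3g) identical, with 65.2% for Reg1 and Reg2. These matches describe letters in a window and were not tied to any measurement of binding.

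The libraries held between 46371577 and 96759833 counts (median 72413343). The epithelial keratins Krt8 and Krt18, which mesothelioma expresses, were abundant in every tumor, and the list of 12 mesothelial and mesothelioma genes summed to between 2128 and 4465 normalized CPM (counts scaled to library size with the trimmed mean of M values) over the 17 tumors. The 3 treated d14 tumors, at 2128 to 2366 CPM, were below the 14 others, at 2786 to 4465 CPM. This sum is led by Krt8, Krt18 and Krt19, and single genes of the list went the other way. By the calling rule given below, 11 of the 12 were tested in treated against untreated d14 tumors. Of these, 3 (Wt1, Lrrn4 and Cdh11) were higher and 0 lower, beside 9.07% and 2.4% of all genes. Their median log2 fold change was 0.22. In these bulk samples more cells of a type and more RNA per cell cannot be told apart.

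All 6 Reg genes were abundant in replicates 1 and 3 of the treated d14 tumors and at or near 0 in the other 15 tumors. Reg2 had 37055, 26 and 11001 counts in treated d14 replicates 1, 2 and 3. Reg1 had 32223, 11 and 9128 counts, and Reg3b 30878, 16 and 9100. Replicates 1 and 3 were thus far above replicate 2 for each of the secreted pancreatic members. Reg3a had 11159, 1 and 3281 counts, Reg3g 6607, 1 and 1818, and Reg3d 3644, 0 and 996. The less abundant Reg3 members showed the same division of the group, with replicate 2 at 0 or 1 count. The group therefore overlapped with the untreated d14 tumors for Reg3a, Reg3d and Reg3g, because of replicate 2.

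**Figure D1:**
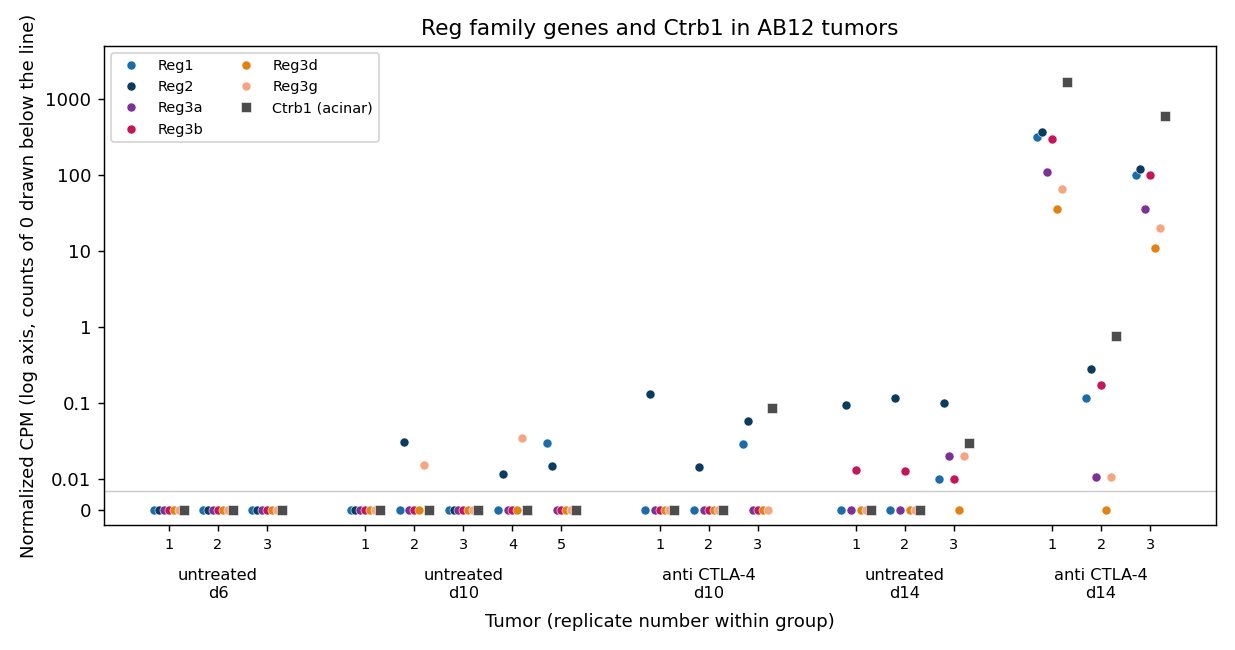
Normalized CPM (log axis, counts of 0 below the line) of the 6 Reg genes (circles) and of Ctrb1 (squares) in each of the 17 tumors, by group and replicate. Treated d14 replicates 1 and 3 stand above all other tumors, and the Reg points of replicate 2 lie between 0.282 CPM for Reg2 and 0 for Reg3d.

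Outside the treated d14 group, the 14 other tumors together held 62 counts of the 6 Reg genes, and 65 of the 84 values, 1 per gene and tumor, were 0. The untreated d6 tumors held 0 counts, which allows up to 0.0647 CPM per gene in the smallest d6 library by a limit of 3 counts. Of the 62 counts, 46 were Reg2, and no other member exceeded 3 counts in a tumor. Reg3d had 0 counts in all 14.

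The acinar enzyme genes divided the treated d14 tumors in the same way. Ctrb1, which encodes chymotrypsinogen B, had 171739, 70 and 53621 counts in replicates 1, 2 and 3, Cpb1, which encodes carboxypeptidase B, 45852, 13 and 12844, and Pnlip, the pancreatic lipase, 20036, 8 and 5460. A list of 34 acinar enzyme and secretory genes summed to 5782, 8.55 and 1926 CPM in these 3 tumors, while the 6 Reg genes summed to 1194, 0.596 and 390 CPM. In replicate 1 the Reg genes made up 0.126% and the acinar list 0.608% of all counts. In the 14 other tumors the acinar list summed to between 2.42 and 9.31 CPM. The upper part of that range came from the d6 tumors, and the d10 and untreated d14 tumors lay between 2.42 and 4.97 CPM. Treated d14 replicate 2 was thus above every d10 and untreated d14 tumor for the acinar list and, at 0.596 CPM, above the highest of the 14 tumors, 0.161 CPM, for the Reg sum.

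The Reg level relative to the acinar genes depended in replicate 2 on the genes used as the reference. The summed Reg counts divided by the summed Ctrb1, Cpb1 and Pnlip counts were 0.512 (95% counting interval 0.508 to 0.515) in replicate 1, 0.604 (0.424 to 0.854) in replicate 2 and 0.491 (0.485 to 0.497) in replicate 3, or 0.536 ± 0.0604 (SD, n = 3). The interval of replicate 2 holds the values of both other tumors, although its summed Reg counts were 55 against 121566 in replicate 1, whereas the intervals of replicates 1 and 3 do not overlap. Against the whole acinar list the ratios were 0.207, 0.0697 and 0.203 in replicates 1, 2 and 3, so that replicate 2 was lower by that reference. The list genes with the highest counts in replicate 2 were Cela1 (231), Klk1 (217) and Ctrl (87). These genes were also counted in untreated d14 tumors, where they reached 149, 150 and 93 counts. Their part in the lower ratio was not tested. The intervals given here cover counting error only, and reads without molecular identifiers are not independent molecules. The 2 other tumors with more than 3 counts of the enzymes were treated d10 replicate 3, with 6 Reg and 9 enzyme counts, a ratio of 0.667 (0.195 to 2.10), and untreated d14 replicate 3, with 16 Reg and 6 enzyme counts, a ratio of 2.67 (0.991 to 8.32).

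The difference between replicates 1 and 3 was nearly the same for every member. The normalized CPM ratio of replicate 1 to replicate 3 was 2.99 for Reg2 (2.93 to 3.06), 3.02 for Reg3b (2.95 to 3.09) and 3.14 for Reg1 (3.07 to 3.21). It was 3.02 for Reg3a (2.91 to 3.14), 3.23 for Reg3g (3.07 to 3.40) and 3.25 for Reg3d (3.03 to 3.49). The intervals of Reg2 and Reg1 do not overlap, while most other pairs do. The median of the 6 was 3.08. Over 24 acinar enzymes that had at least 50 counts in replicate 3 and at most 20 counts in any of the 14 other tumors, the ratio ran from 2.77 to 3.29, also with a median of 3.08. Over 14252 genes with at least 50 counts in both replicates the median ratio was 0.985, with 5% of them below 0.782 and 5% above 1.39.

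Replicate 2 held few counts of these genes, with Reg3d at 0 and Reg3a and Reg3g at 1, within the range of the untreated d14 tumors. Its summed counts were 0.452 per 1000 of those in replicate 1 for the 6 Reg genes (0.341 to 0.589), and 0.343 per 1000 for the 5 without Reg2 (0.230 to 0.493). For acinar enzymes with at least 1000 counts in replicate 1 and at most 3 in any of the 14 other tumors the value was 0.433 per 1000 (0.360 to 0.517), from 123 counts against 283884. These values are a description of the tumors by which the genes were chosen. Whether the counts of replicate 2 came from its own tissue or from reads of another library was not tested.

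Within the family the members kept the same order in replicates 1 and 3. Per kb of the longest coding transcript, Reg2 was highest, at 522 CPM per kb in replicate 1 and 174 in replicate 3. Reg3b followed with 387 and 128, and Reg1 with 350 and 112. Reg3a had 133 and 44.0 CPM per kb, Reg3g 84.2 and 26.1, and Reg3d 45.8 and 14.1. When the length of all annotated exons together was used, Reg1 moved ahead of Reg3b and Reg3d ahead of Reg3g, so these neighbours in the order depend on the gene model. By this measure in replicate 1, Ctrb1 had 1922 CPM per kb, above every Reg gene, Cpb1 166 and Pnlip 132, so that Reg2, Reg3b and Reg1 lay above Cpb1 and Pnlip.

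**Figure D2:**
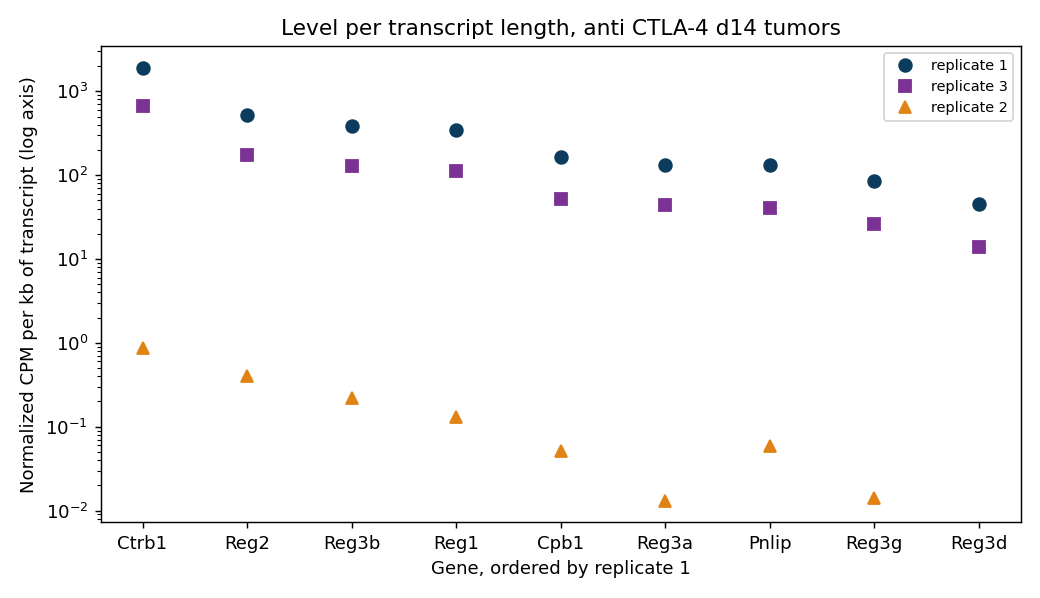
Normalized CPM per kb of the longest coding transcript (log axis) for the 6 Reg genes and 3 acinar enzymes in the treated d14 tumors, 1 symbol per replicate. Replicates 1 and 3 run in parallel from Ctrb1 to Reg3d, 45.8 and 14.1 CPM per kb, and Reg3d is missing from replicate 2, where it had 0 counts.

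As shares of the Reg counts, Reg2 took 30.5% in replicate 1 and 31.1% in replicate 3, Reg1 26.5% and 25.8%, and Reg3b 25.4% and 25.8%. Reg3a took 9.18% and 9.29%, Reg3g 5.43% and 5.15%, and Reg3d 3.00% and 2.82%. In replicate 2 Reg2 took 47.3% of 55 counts, with an exact interval of 33.7 to 61.2%, which lies above its shares in both other tumors.

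The genes whose profile over the 17 tumors was most like that of each member were acinar genes in nearly all cases. Likeness was the root mean square difference between mean-centred log2(CPM + 0.5) profiles over 14683 genes, and the profiles rest on treated d14 replicates 1 and 3. For Reg3b the nearest genes outside the family were Cpa1 (0.02), Cela2a (0.04) and 2210010C04Rik (0.10), and for Reg1 Cela2a (0.02), Cpa1 (0.05) and 2210010C04Rik (0.09). Cpa1 encodes carboxypeptidase A1 and Cela2a a pancreatic elastase. For Reg2 they were Cpa1 (0.12), Cela2a (0.13) and the bile salt-stimulated lipase gene Cel (0.13), for Reg3a Try5 (0.05), Clps (0.13) and Zg16 (0.14), for Reg3g Try4 (0.05) and Pnliprp2 (0.07), and for Reg3d Amy2b (0.12), Prss3 (0.12) and Ctrc (0.14).

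In all, 58 genes had at least 100 counts in treated d14 replicate 1, at least 30 in replicate 3 and at most 20 in every tumor outside the group. They included all 6 Reg genes and 24 of the 34 acinar genes. Among these 58, ordered by counts in replicate 1, Reg2 stood 5th, Reg1 6th, Reg3b 8th, Reg3a 17th, Reg3g 20th and Reg3d 24th. The acinar transcription factors Ptf1a, with 64, 0 and 20 counts in treated d14 replicates 1, 2 and 3 and 0 in the 14 other tumors, and Rbpjl, with 102, 1 and 35 counts, divided the group in the same way at far lower levels. They were named after their values were seen, and other factors on the list of 6 did not divide it: Nr5a2 had 96, 78 and 101 counts, Gata4 2928, 2721 and 3314, and Mecom 1971, 1888 and 2390.

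Of the marker lists for other tissues near the peritoneum, the sums for islet, duct and intestine did not divide the treated d14 tumors as the Reg genes did, while those for stomach and liver were highest in replicate 1. The insulin genes Ins1 and Ins2 had 0 counts in both replicates with high Reg counts, while Pcsk2, a prohormone convertase gene, had 34, 0 and 9 counts and Gcg 2, 0 and 2 in replicates 1, 2 and 3. The islet list of 15 genes summed to 2.96, 4.18 and 4.33 CPM in treated d14 replicates 1, 2 and 3 against 1.71 to 2.99 CPM in the 14 other tumors. The list of 8 pancreatic duct genes, led by Spp1 and Krt19, summed to 2637, 2280 and 2868 CPM against 2826 to 5193 CPM in the others, with Krt19 also a mesothelioma gene. Of 18 intestine genes, the secretory cell markers Muc2, Defa17 and Defa24 were at 0 in the treated d14 tumors, whereas Lyz1, a Paneth cell gene, had 820, 544 and 695 counts and Fabp1 15, 1 and 4 in replicates 1, 2 and 3, and the list, led by Cdh17 and Cdx2, summed to 124 to 142 CPM against 125 to 251 CPM elsewhere. The stomach list summed to 8.97, 2.07 and 4.19 CPM against 0.101 to 2.37 CPM, led by Tff2, a trefoil peptide gene with 773, 2 and 232 counts. Other genes of the stomach list showed no such division. Muc5ac had 54, 122 and 93 counts and Tff1 82, 58 and 49 in replicates 1, 2 and 3. Gkn1, Gkn2, Pgc, Atp4a and Atp4b had at most 6 counts. The liver list summed to 5.20, 0.184 and 1.40 CPM against 0.0538 to 0.385 CPM, led by Alb with 367, 0 and 79 counts. Spp1, Krt19, Cdh17 and Cdx2 were present in all 17 tumors. The duct and intestine sums that they lead therefore cannot show whether a small amount of these tissues was there. The part of islet, duct, intestine, stomach and liver in the Reg counts was not tested.

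**Figure D3:**
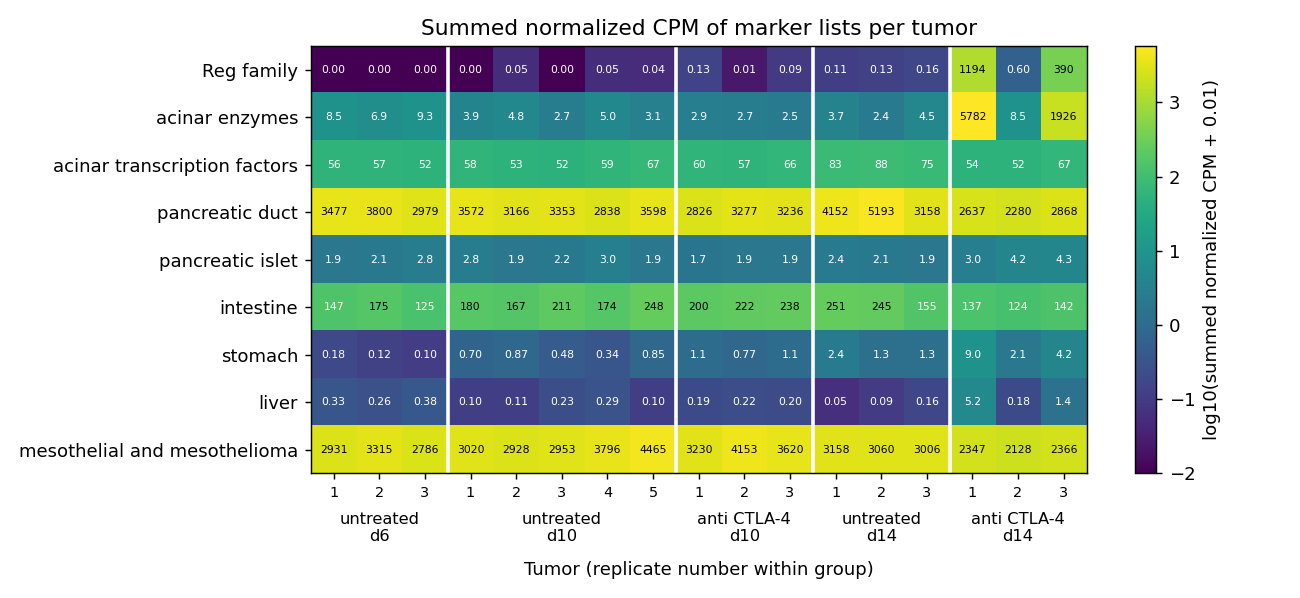
Summed normalized CPM of the Reg genes and of 8 marker lists in each of the 17 tumors (numbers in the cells are CPM, colors are log10 of CPM + 0.01). The Reg and acinar rows stand out in treated d14 replicates 1 and 3, with 1194 and 390 CPM for Reg, while the mesothelial row is lowest in the 3 treated d14 tumors (2128 to 2366 CPM against 2786 CPM or more in the 14 others). The mesothelial sum is led by Krt8, Krt18 and Krt19, and 0 of its genes were called lower in treated against untreated d14 tumors.

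In the 4 comparisons that left out the treated d14 tumors, 0 of 6 members passed the filter on low counts, so none was tested in the main fits with edgeR's quasi-likelihood test. A call needed an adjusted p below 0.05 and a change above 2-fold. By this rule 7.45% of 16866 genes were called at d10 against d6 (4.79% higher, 2.66% lower) and 7.23% of 17659 at untreated d14 against d10 (3.78% higher, 3.45% lower). At untreated d14 against d6 19.0% of 17172 were called (10.2% higher, 8.81% lower), and in treated against untreated d10 tumors 0.0174% of 17258, all of them higher.

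Reg2 was the only member with more than 3 counts in a tumor outside the treated d14 group, and it was looked at further after its values were seen. It had 0, 0 and 0 counts at d6, then 0, 2, 0, 1 and 1 counts in the 5 untreated d10 tumors, and 7, 9 and 10 counts in the untreated d14 tumors. The treated d10 tumors had 11, 1 and 4 counts. All untreated d14 tumors were above all untreated d6 and d10 tumors, and the treated d10 tumors overlapped with both untreated d10 and untreated d14. The untreated d14 mean was 0.104 ± 0.0112 CPM (SD, n = 3) and the untreated d10 mean 0.0115 ± 0.0128 CPM (SD, n = 5), a difference of 0.0921 CPM with an exact two-sided permutation p of 0.0179, the smallest this design allows. Adjusted over the 4 comparisons this p was 0.0714, which misses the threshold. Pooled over tumors, 26 counts at d14 against 4 at d10 gave a ratio of 8.87 per library count (exact 95% counting interval 3.08 to 35.0).

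Without the filter on low counts, edgeR gave Reg2 a log2 fold change of 2.92 (SE 0.76, adjusted p = 0.0261) for untreated d14 against d10, in a fit in which 2.44% of 32439 genes were called higher, and DESeq2 gave 3.10 (adjusted p = 0.0262). The edgeR call was lost when any 1 of the 3 untreated d14 tumors was left out (adjusted p = 0.0621, 0.106 and 0.0702 without replicates 1, 2 and 3), without untreated d10 replicate 1 (adjusted p = 0.0597), and when only d10 replicates 4 and 5 were kept (adjusted p = 0.0518). Against d6, where Reg2 had 0 counts in every tumor, the adjusted p was 0.00198 in edgeR, with 7.93% of 31761 genes called higher, but the exact permutation p was 0.1, the smallest that 3 against 3 tumors allow. For treated against untreated d10 tumors, the difference was 0.0564 CPM (exact permutation p = 0.0536, adjusted over the 4 comparisons 0.107), and for d10 against d6 0.0115 CPM (exact permutation p = 0.286). Pooled over tumors, treated against untreated d10 gave 16 against 4 counts, a ratio of 5.82 (exact 95% counting interval 1.88 to 23.9), in which 11 of the 16 counts came from 1 tumor, and this interval does not cover the spread between tumors.

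These low Reg2 counts were not accompanied by Ctrb1 counts in the proportion seen in the treated d14 tumors. Of the sum of Reg2 and Ctrb1 counts, Reg2 made up 17.7% (17.6 to 17.9%) in treated d14 replicate 1, between 16.7 and 17.3% in replicate 3 and 27.1% (18.5 to 37.1%) in replicate 2. In the untreated d14 tumors it made up 89.7% (26 of 29 counts, 72.6 to 97.8%), and over all 14 tumors outside the treated d14 group 83.6% (46 of 55 counts, 71.2 to 92.2%). Untreated d14 replicates 1 and 2 and treated d10 replicate 1 had 7, 9 and 11 Reg2 counts with 0 Ctrb1 counts. Other acinar genes differed. In untreated d14 tumors Cpb1 and Pnlip reached at most 2 and 1 counts, but Prss2 reached 18. Against the whole acinar list, the Reg ratio was 0.0291, 0.0532 and 0.0355 in untreated d14 replicates 1, 2 and 3. These were below the 0.207 and 0.203 of treated d14 replicates 1 and 3. That list includes Cela1, Klk1 and Ctrl, which were also counted in untreated d14 tumors. The source of these Reg2 counts was not tested.

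**Figure D4:**
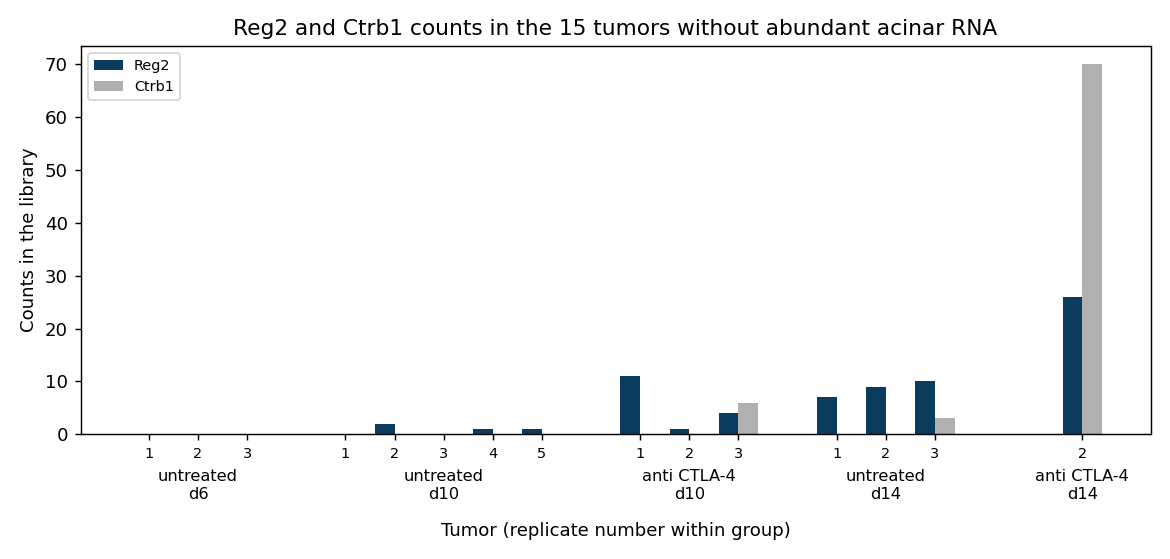
Counts of Reg2 (dark bars) and Ctrb1 (grey bars) in the 15 tumors other than treated d14 replicates 1 and 3. Reg2 is above Ctrb1 in all untreated d14 tumors, with 7, 9 and 10 counts, while in treated d14 replicate 2 Ctrb1, with 70 counts, is above Reg2, with 26.

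Reg4, the family member encoded on another chromosome, had at most 1 count in any tumor. Extl3, reported as a receptor for Reg proteins, was present in every tumor. Its levels were 30.8, 36.4 and 32.9 CPM at d6, from 41.4 to 73.1 CPM at untreated d10 (median 48.0), 63.7 to 70.4 CPM at treated d10, 56.7, 51.7 and 71.0 CPM at untreated d14, and 77.6, 87.1 and 79.1 CPM at treated d14. All treated d14 tumors, replicate 2 included, were above all untreated d14 tumors (log2 fold change 0.48, SE 0.12, adjusted p = 0.0232), below the 2-fold threshold. Untreated d14 tumors were also above d6 tumors (log2 fold change 0.86, SE 0.12, adjusted p = 5.2e-04), again below 2-fold. At d10, replicates 4 and 5 were the highest of the untreated tumors.

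Of 38 genes of the surrounding pathway (Reg relatives and receptor, cytokines known to induce Reg genes, their receptors and the STAT3 arm, acinar transcription factors and acinar stress genes), 32 were tested in each comparison. At d10 against d6, 2 were higher (6.25%, beside 4.79% of all genes) and 0 lower, with a median log2 fold change of 0.04 beside 0.03 over all genes. Il11, which encodes a cytokine of the IL-6 family, rose from 0.734, 0.464 and 0.729 CPM at d6 to between 1.37 and 2.76 CPM at d10 (log2 fold change 1.72, SE 0.31, adjusted p = 0.00506). Its receptor gene Il11ra1 rose as well (1.07, SE 0.30, adjusted p = 0.0349), a call that held in 7 of 15 alternative fits, and was lost without any 1 of the d6 tumors and without d10 replicate 1, 2 or 4.

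At untreated d14 against d10, 0 of the 32 were higher and 1 was lower (3.12%, beside 3.45% of all genes), with a median log2 fold change of 0.03 beside -0.04 over all genes. Ifng, the interferon gamma gene, fell from between 9.33 and 24.8 CPM (median 18.2) to 8.37, 4.38 and 6.35 CPM (log2 fold change -1.39, SE 0.35, adjusted p = 0.0242). All d14 tumors were below all d10 tumors. The T cell list summed to 331 ± 38.4 CPM at d10 (SD, n = 5) and 165 ± 48.3 CPM at d14 (SD, n = 3), with 6 of 10 genes called lower, and its part in the Ifng difference was not tested. The call was lost without d10 replicate 1 or 2 and without d14 replicate 2 or 3 (log2 fold change between -1.38 and -1.18), and was -0.66 against d10 replicates 4 and 5 alone. At d14 against d6, 1 was higher and 3 were lower (12.5% in all, beside 19.0% of all genes), with a median of 0.09 beside 0.01 over all genes. Il11 was higher (2.07, SE 0.26, adjusted p = 2.7e-04), and Ifng (-2.15, SE 0.24, adjusted p = 1.7e-04), Il6 (-1.58, SE 0.30, adjusted p = 0.00248) and Clu, which encodes the chaperone clusterin (-1.25, SE 0.11, adjusted p = 6.0e-05), were lower. These calls held in all 11 alternative fits.

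Between treated and untreated d10 tumors, 0 of the 32 passed the test in edgeR, 4 had an unadjusted p below 0.05, and DESeq2 called 1, lower, among the 36 it fitted. The median log2 fold change was -0.01, as over all genes.

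Between treated and untreated d14 tumors, where 11.5% of 18062 genes were called (9.07% higher, 2.4% lower), 4 of the 32 pathway genes (12.5%) were higher and 0 lower, with a median log2 fold change of 0.22 beside -0.00430 over all genes. Il6, an inducer of Reg genes in acinar cells, had 4.78, 5.51 and 2.68 CPM in untreated and 11.6, 7.28 and 8.23 CPM in treated d14 tumors (log2 fold change 1.10, SE 0.29, adjusted p = 0.0240). The groups did not overlap, and replicate 2, with few Reg counts, was also above the untreated tumors. The Il6 call was lost without untreated d14 replicate 1 or 3 and without treated d14 replicate 1 (log2 fold change 1.19, 0.87 and 0.90). Ifng had 8.37, 4.38 and 6.35 CPM in untreated and 14.2, 14.2 and 10.5 CPM in treated d14 tumors (1.06, SE 0.25, adjusted p = 0.0167), a call lost without untreated d14 replicate 2 and without treated d14 replicate 1 or 2 (0.84, 1.02 and 1.02). T cell genes moved with it: the list of 10 summed to 303 to 349 CPM in treated and 113 to 208 CPM in untreated d14 tumors, with 5 of 10 called higher, and their part in the Ifng difference was not tested. Il11ra1 was higher (1.07, SE 0.25, adjusted p = 0.0180), and this call was lost without untreated d14 replicate 1 or 2 and without treated d14 replicate 1 or 2.

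Bhlha15, which encodes the transcription factor Mist1 of secretory cells, had 0.296, 0.0903 and 0.503 CPM in untreated and 2.87, 1.01 and 1.90 CPM in treated d14 tumors (log2 fold change 2.70, SE 0.58, adjusted p = 0.0135). It was highest in replicates 1 and 3, and replicate 2 was above the untreated tumors as well. Without untreated d14 replicate 1 the adjusted p was 0.0546. The Reg genes were chosen by their high counts in treated d14 replicates 1 and 3. The call of this acinar factor, counted among the pathway calls above, is therefore not independent of that choice. Il22 had 0 counts in all 17 tumors. Socs3, a target of STAT3, was higher in treated than untreated d14 tumors by 0.70 (SE 0.09, adjusted p = 0.00491), below the 2-fold threshold. It had 166, 147 and 144 CPM in treated and 102, 89.6 and 96.2 CPM in untreated d14 tumors. The part of IL-6 and STAT3 signaling in the Reg counts was not tested. Stat3 itself did not pass the test (0.20, SE 0.09, adjusted p = 0.13), and neither Hspa5 nor any other of the 8 acinar stress genes was called.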

How the data were processed

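RNA of 17 tumors was sequenced by the authors as KAPA RNA HyperPrep libraries, paired-end, with 75 or 100 bases. Per the study's methods and the submitters' processing notes, reads were placed on GRCm38 by TopHat2 2.0.14, and HTSeq counted those with a unique position per gene of Gencode vM21. The deposited values are raw counts, whole numbers without normalization. Whether counting used strand is not given in the sources used here, nor is the instrument of each library. The labels gave each tumor's group and replicate number.

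The Reg members and all gene lists were chosen with earlier results of these data known. Each comparison was fitted on its own groups with edgeR 4.0.16 in R 4.3.3 (filterByExpr, TMM, quasi-likelihood test, Benjamini-Hochberg adjustment over all genes tested). A call needed an adjusted p below 0.05 and a change above 2-fold. DESeq2 1.42.0, scaling without TMM, no filter beyond 1 count, all 5 groups in 1 fit, a replicate block, each replicate left out and parts of the d10 group were alternatives. Scripts were tested on simulated data. Single values were compared with exact permutation tests in scipy 1.17.1. Intervals are exact binomial at 95% and cover counting error only. A limit of 3 counts per library was used for values at 0, and p-values measure the spread between tumors. Levels per kb used the longest coding transcript. Named genes were the members, Ctrb1, Cpb1, Pnlip, Reg4, Extl3, the 3 genes of each list highest in the treated d14 tumors, called members of lists with 5 or fewer calls, and the 3 nearest profiles per member. Ins1, Ins2, Pcsk2, Gcg, Ptf1a, Rbpjl, Nr5a2, Il22, Muc2, Defa17, Defa24, Fabp1, Gkn1, Gkn2, Pgc, Atp4a, Atp4b, Cela1, Klk1, Ctrl, Socs3 and Stat3 were named outside this rule, after their values were seen. Upstream sequences are RefSeq's, matched by symbol for 6 of 6 members. Of 9 stomach genes 8 were matched. The other was Cblif, the intrinsic factor gene, which is annotated here under its older symbol Gif and is not in the stomach sums. Some items are not reported here. Across 22 replicate pairs the chi-square statistic per gene was 18.5 to 268, so no pair agreed within sampling noise. The highest values, 169 to 268, were those of untreated d10 replicates 1 to 3 paired with replicates 4 and 5. Per its methods, the study removed genes with a batch effect between sequencing projects, and no gene was removed for that reason here.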

Additional observations from a re-analysis of the deposited data

Results flagged for a closer look

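Among genes of the Reg pathway, the treatment effect (treated minus untreated, log2) differed between d14 and d10 for 9 of 32 genes by an interaction test in edgeR (adjusted over all genes), beside 20.4% of 18843 genes tested. The difference, d14 minus d10, was 5.01 for Bhlha15 (adjusted p = 0.00234). Its effect was 2.70 at d14 and -2.32 at d10, where edgeR did not call it (adjusted p = 0.247). At d10 Bhlha15 was low, from 0.133 to 1.44 CPM in untreated tumors, highest in replicate 4, and from 0.101 to 0.143 CPM in treated tumors. The difference was 1.57 for Il6 (adjusted p = 0.0267), 1.33 for Ifng (adjusted p = 0.0345), 1.20 for Clu (adjusted p = 0.00392) and 0.76 for Socs3 (adjusted p = 0.00161). Smaller differences were 0.59 for Bcl3 (adjusted p = 0.0184) and 0.58 for Pim1 (adjusted p = 0.0215), while the differences were negative for Mecom (-0.99, adjusted p = 0.00267) and Egr1 (-0.51, adjusted p = 0.0389). The value for the acinar factor Bhlha15 draws on the treated d14 tumors by which the Reg genes were chosen, so it is not independent of that choice.

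In 3 of 48 groups of values, 1 untreated d10 tumor stood apart by a gap above the 95% limit for 5 samples, 0.71 of the range, which chance exceeds in about 1 of 20 groups. Il6st had 166 CPM in replicate 4 (median 128), Atf3 42.2 CPM in replicate 1 (median 52.5), and Rbpjl 0.0467 CPM in replicate 4, where the 4 others were at 0. With 4 values at 0, any count in the remaining tumor passes this limit. The Rbpjl gap was therefore fixed in advance, and the rate of 1 of 20 does not apply to it.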

How the results depend on the processing

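The summed Reg level of the treated d14 tumors averaged 528 CPM and ran from 196 to 792 CPM when 1 tumor was left out, so it rests on replicates 1 and 3, and other scalings moved it by less than the spread between tumors. The Reg to enzyme ratio of 0.536 (0.501 to 0.558 with 1 tumor left out) depends on its denominator: it was 0.160 against the whole acinar list, 0.717 against Ctrb1, 3.21 against Cpb1 and 6.47 against Pnlip. For d10 against d6, 1257 genes were called, 2794 with d10 replicates 4 and 5 only and 810 to 1377 with 1 tumor left out. For untreated d14 against d10, 1277 were called, 2001 with all groups in 1 fit, 1969 with d10 replicates 1 to 3 only and 281 to 1528 with 1 tumor left out. For d14 against d6, 3270 were called, with a range of 3117 to 3437. For treated against untreated d14 tumors, 2072 were called, with a range of 1172 to 2851. For treated against untreated d10 tumors, 3 were called, but 0 without TMM, 40 with all genes of at least 1 count, 77 with all groups in 1 fit, 243 in DESeq2, 1152 with d10 replicates 1 to 3, 96 with replicates 4 and 5 and 0 to 115 with 1 tumor left out. The cause of these shifts was not tested. With the replicate number as a block, 1210 were called in that comparison, but the numbers did not pair the samples: deviations of equal numbers correlated between -0.265 and 0.118. Of the pathway calls, the block ended those of Il11ra1 at d10 against d6 (0.88, below 2-fold) and in treated against untreated d14 tumors (adjusted p = 0.0515). The Reg2 difference between untreated d14 and d10 was 0.0933 CPM with d10 replicates 1 to 3 and 0.0903 with replicates 4 and 5, both with an exact p of 0.1, the smallest these sizes allow. Fits of Reg2 that leave out a tumor without the filter were added after seeing the data. Depth limits Reg values outside the treated d14 group to a few counts per tumor.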

Other observations

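Of the 58 genes that met the count limits for high values in treated d14 replicates 1 and 3 and low values outside the group, 28 were outside both the Reg family and the acinar list. Besides Tff2 and Alb, they included the muscle myosin gene Myh2 (367, 0 and 85 counts in replicates 1, 2 and 3), the gastric intrinsic factor gene Gif (346, 0 and 79), the cholecystokinin receptor gene Cckar (543, 1 and 166) and the polymeric immunoglobulin receptor gene Pigr (686, 3 and 179). The immunoglobulin variable gene Ighv1-15 met the same count limits but had 236, 404 and 1007 counts, with replicate 3 highest and replicate 2 not low. The intestinal homeobox gene Cdx2 was measured in all 17 tumors, from 13.5 to 48.7 CPM, and Cdh17, an intestinal cadherin, from 65.3 to 217 CPM, whereas Reg counts were at or near 0 in 15 of them. These genes were chosen after their values were seen.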
